A study of Mus musculus with 5 samples.

Results

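The regions described here were bound by Runx3 in IL-2-activated CD8-TC and hold no canonical RUNX motif. They were chosen by sequence alone, as the regions of the Runx3 list whose mm9 sequence, from the first to the last base of the called region, has no match on either strand to TGYGGY, where Y stands for C or T. Of the 9135 Runx3-bound regions, 678 (7.42%) met this rule and 8457 held at least 1 match. The former are called no-motif regions below, and the latter motif-bearing regions.

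Runx3 binding was measured by ChIP-seq in splenic CD8+ T cells of wild-type ICR mice. The cells were positively selected on anti-CD8 beads and TCR-activated for 2 days with anti-CD3e and anti-CD28. They were then cultured for a further 4 days in 100 u/ml recombinant human IL-2. Of the 5 libraries, 2 were immunoprecipitations with an in-house polyclonal anti-Runx3 antibody and 1 an immunoprecipitation with an antibody to H3K4me1. The other 2 were precipitations with non-immune rabbit serum (NIS) from the same kind of cells. The reads of the Runx3 repeats were joined before peaks were called against the joined NIS reads, so each region was called in the pooled data, no value below has a replicate error and the depth behind a region is unknown. Intervals in parentheses are 95% Wilson intervals, which cover counting error among regions only, and no significance test was run between groups of regions.

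RUNX factors bind DNA through the runt domain, in a dimer with CBFB, and the sequence TGYGGY is their canonical site. Runx3 is the family member that is most abundant in cytotoxic lymphocytes, where it acts on genes of lineage choice and effector function. ETS factors bind sites with the core GGA and are known to bind side by side with RUNX factors on composite sites in lymphocyte genes. H3K4me1, the monomethylated form of a lysine in the tail of histone H3, is widespread at enhancers.

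The sequences that follow show what the no-motif regions held at their centres. Most held words that depart from the RUNX motif by 1 base, of the kinds AGYGGY, TGAGGY and TGYGGG, named RUNX-like words here. These 3 words were chosen after their counts had been seen. The first set gives the word closest to the region centre at genes of T cell function, read on the plus strand of mm9, with RUNX-like words of either strand in capitals. The Tnf stretch lies in the body of the gene for the cytokine TNF, those of Il12rb2 and Il12rb1 at the genes for the IL-12 receptor chains, that of Cd8b1 at the gene for the CD8 beta chain, and those of Plcg1, Fyn, Cblb and Smad3 in introns of genes for signalling proteins.
Tnf, chr17:35337543-35337602: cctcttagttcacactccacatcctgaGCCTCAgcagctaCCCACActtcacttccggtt
Il12rb2, chr6:67317326-67317385: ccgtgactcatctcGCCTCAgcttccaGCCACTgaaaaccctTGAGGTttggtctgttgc
Cd8b1, chr6:71283991-71284050: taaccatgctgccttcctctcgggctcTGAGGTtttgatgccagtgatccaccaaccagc
Il12rb1, chr8:73330704-73330763: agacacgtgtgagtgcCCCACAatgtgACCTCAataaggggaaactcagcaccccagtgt
Plcg1, chr2:160560209-160560268: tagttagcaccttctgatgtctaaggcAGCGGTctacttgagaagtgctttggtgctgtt
Fyn, chr10:39192192-39192251: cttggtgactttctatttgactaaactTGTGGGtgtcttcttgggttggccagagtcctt
Cblb, chr16:52082206-52082265: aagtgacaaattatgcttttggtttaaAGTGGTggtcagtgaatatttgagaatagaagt
Smad3, chr9:63567860-63567919: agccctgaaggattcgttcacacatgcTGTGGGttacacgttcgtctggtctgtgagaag

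The whole of 1 short no-motif region, of 295 bp in an intron of Tox (a transcription factor gene of T cell development and exhaustion), is given to show how sparse the words can be. Its RUNX-like words are in capitals on the plus strand.
Tox, chr4:6897534-6897828: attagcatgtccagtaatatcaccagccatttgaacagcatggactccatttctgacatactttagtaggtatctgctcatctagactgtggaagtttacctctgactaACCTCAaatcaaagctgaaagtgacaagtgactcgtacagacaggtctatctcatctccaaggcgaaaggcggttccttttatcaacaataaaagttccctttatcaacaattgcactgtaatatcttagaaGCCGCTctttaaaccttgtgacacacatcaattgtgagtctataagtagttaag

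A further set shows an arrangement that recurred at the centres, the ETS core GGA joined directly to the RUNX-like word AGTGGT. The capitals mark this composite, GGAAGTGGT, on the strand on which it reads in this direction. The Foxk1, Gm10260, Gm10097 and Samd3 stretches are from the minus strand and the others from the plus strand. Each is named by the nearest protein-coding gene start. They were chosen after their values had been seen, as the composites closest to a region centre that overlap no UTR, and the first 6 lay over 5 kb from a TSS and the last 2 under 1 kb.
Foxk1, chr5:142856775-142856813: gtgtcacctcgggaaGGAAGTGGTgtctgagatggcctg
1700040L02Rik, chr10:68016591-68016629: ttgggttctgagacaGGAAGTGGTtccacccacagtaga
Dcp1a, chr14:31062963-31063001: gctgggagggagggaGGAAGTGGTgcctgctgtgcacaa
Gm10260, chr13:98627932-98627970: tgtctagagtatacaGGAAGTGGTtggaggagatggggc
Gm10097, chr10:5182556-5182594: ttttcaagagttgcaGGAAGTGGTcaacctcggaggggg
Tmem44, chr16:30535354-30535392: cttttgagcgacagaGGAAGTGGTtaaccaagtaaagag
Otub1, chr19:7281126-7281164: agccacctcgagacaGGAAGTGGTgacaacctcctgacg
Samd3, chr10:25949466-25949504: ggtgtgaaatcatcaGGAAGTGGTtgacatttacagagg

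The last set shows promoter sequence and the edges of regions. For Polr2a, the gene of the largest subunit of RNA polymerase II, ETS motifs and GC boxes of a no-motif promoter region are in capitals. The Hist1h4d and D730003I15Rik stretches span the edge of a no-motif region, 20 bp to each side, and the capitals mark a RUNX motif that lay just outside.
Polr2a, chr11:69572164-69572223: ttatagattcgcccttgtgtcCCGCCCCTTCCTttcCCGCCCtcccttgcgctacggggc
Hist1h4d right edge, chr13:23685366-23685405: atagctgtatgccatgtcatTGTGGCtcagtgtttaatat
D730003I15Rik left edge, chr1:193083133-193083172: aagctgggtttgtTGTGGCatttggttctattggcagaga

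No-motif regions were narrower than motif-bearing regions. Their median width was 459 bp (range 186 to 2024 bp), beside 527 bp (range 173 to 5018 bp) for motif-bearing regions and 467 bp for the 2305 regions with exactly 1 motif. The share of regions without a motif fell across the quartiles of width, from 12.0% (10.8 to 13.4%) of those of 173 to 425 bp to 8.45% (7.38 to 9.66%), 6.41% (5.48 to 7.49%) and 2.77% (2.17 to 3.52%) of those of 634 to 5018 bp. A longer stretch offers more positions for a match, so H3K4me1 and the share near TSSs are also given by width or with widths weighted below. Motifs were counted in windows of a fixed length, and the remaining comparisons were not adjusted for width.

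The edges of the rule were drawn by the region bounds. The nearest TGYGGY outside a no-motif region lay at a median of 209.5 bp from its edge, beside 202 bp for motif-bearing regions. A TGYGGY lay within the 100 bp outside either edge of 178 no-motif regions (26.3%, 23.1 to 29.7%) and of 2244 motif-bearing regions (26.5%, 25.6 to 27.5%), a difference of -0.281 percentage points (-3.59 to 3.28). In 9 no-motif regions a TGYGGY straddled the edge itself, counted separately from the 178, so that a region can be in both counts. The no-motif regions closest to a motif wholly outside their bounds were chr13:23684967-23685385 at the Hist1h4d histone locus and chr8:87187743-87188208 near Gm2529, each with a TGYGGY at 0 bp from the edge, and chr1:193083153-193083534 near D730003I15Rik with one at 1 bp. The motif-bearing regions closest to failing the rule, each with 1 motif at 0 or 1 bp inside an edge, were chr12:88200953-88201471 near 6430527G18Rik, chr5:33360957-33361295 near Ywhah and chr4:124528352-124528657 over Yrdc.

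No-motif regions lay at TSSs more often than motif-bearing regions. Of the 678, 219 (32.3%, 28.9 to 35.9%) had a centre under 1 kb from a TSS, against 26.3% of all Runx3-bound regions and 25.8% of motif-bearing regions, a difference to the latter of 6.46 percentage points (2.92 to 10.2). A further 106 lay at 1 to 5 kb, 285 at 5 to 50 kb and 68 at least 50 kb away. Those over 5 kb, named distal, thus numbered 353 (52.1%, 48.3 to 55.8%), against 56.4% of all Runx3-bound regions. Among the 219 proximal regions, the nearest TSS belonged to a protein-coding gene in 201 (91.8%, 87.4 to 94.7%). Proximal motif-bearing regions had 89.2%, inside this interval. In the annotation 89 no-motif regions overlapped a coding exon, 86 UTR but no coding exon, and 17 a non-coding exon, while 238 lay in introns and 248 between genes. The UTR class was 12.7% of no-motif and 9.61% of motif-bearing regions, and in the other classes the interval of the difference included 0.

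By quartile of width, the excess near TSSs exceeded the intervals in the middle of the range. In the narrowest quartile, which held 276 of the 678, 26.1% (21.3 to 31.6%) of no-motif and 22.3% (20.5 to 24.1%) of motif-bearing regions were proximal, and these intervals overlapped. In the quartile of 426 to 521 bp, 69 of 193 no-motif regions were proximal (35.8%, 29.3 to 42.7%), beside 24.1% (22.3 to 26.0%) of motif-bearing regions of this width. In the quartile of 522 to 633 bp, 60 of 146 no-motif regions were proximal (41.1%, 33.4 to 49.2%), beside 26.6% (24.8 to 28.6%) of motif-bearing regions of this width. In the widest quartile the values were 28.6% (18.9 to 40.7%) and 29.95% (28.1 to 31.9%), and these intervals overlapped as well. Base composition differed little once distance was fixed. The median GC content of the central 200 bp was 58.5% in proximal no-motif and 60% in proximal motif-bearing regions, and 47.5% and 48.5% in the distal ones. CpG-rich sequence, with a CpG observed/expected ratio over 0.6 and GC content over 50% in the central 500 bp, was found at 136 of 219 proximal no-motif regions (62.1%) and at 60.2% of the proximal motif-bearing regions.

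H3K4me1 was less frequent at no-motif regions. Of the 678, 312 (46.0%, 42.3 to 49.8%) overlapped an H3K4me1-marked region by at least 1 bp, against 57.3% of all Runx3-bound regions and 58.2% (57.2 to 59.3%) of motif-bearing regions, a difference to the latter of -12.2 percentage points (-16.1 to -8.27). The difference had the same sign in each distance class. Under 1 kb from a TSS 31 of 219 no-motif regions were marked (14.2%, 10.2 to 19.4%) and 20.6% of the motif-bearing, at 1 to 5 kb 55 of 106 (51.9%, 42.5 to 61.2%) and 66.1%, at 5 to 50 kb 184 of 285 (64.6%, 58.9 to 69.9%) and 73.5%, and at 50 kb or more 42 of 68 (61.8%, 49.9 to 72.4%) and 70.5%. In the last class the interval of the difference, -20.9 to 2.36 percentage points, included 0.

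Width moved with this result. When motif-bearing regions were weighted to the widths and distances of the no-motif regions, 51.4% of them overlapped H3K4me1, a difference of -5.41 percentage points. This weighted share still lay above the interval of the no-motif regions (46.0%, 42.3 to 49.8%). Among distal regions alone the weighted share was 68.3%, inside the interval of the no-motif regions (64.0%, 58.9 to 68.9%). Among proximal regions it was 19.2%, also inside the interval (14.2%, 10.2 to 19.4%). By quartile of width, distal no-motif regions were marked in 52.6%, 65.0%, 77.3% and 84.2% of cases from narrow to wide, and distal motif-bearing regions in 58.9%, 69.3%, 78.3% and 85.6%. The interval of each of the 4 no-motif values held the motif-bearing value. Regions with few motifs were close to those with none, since distal regions with exactly 1 motif had a median width of 464 bp and overlapped H3K4me1 in 69.0% (66.4 to 71.5%), and those with 4 or more a median width of 639 bp and 76.8% (74.0 to 79.4%).

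**Figure D1:**
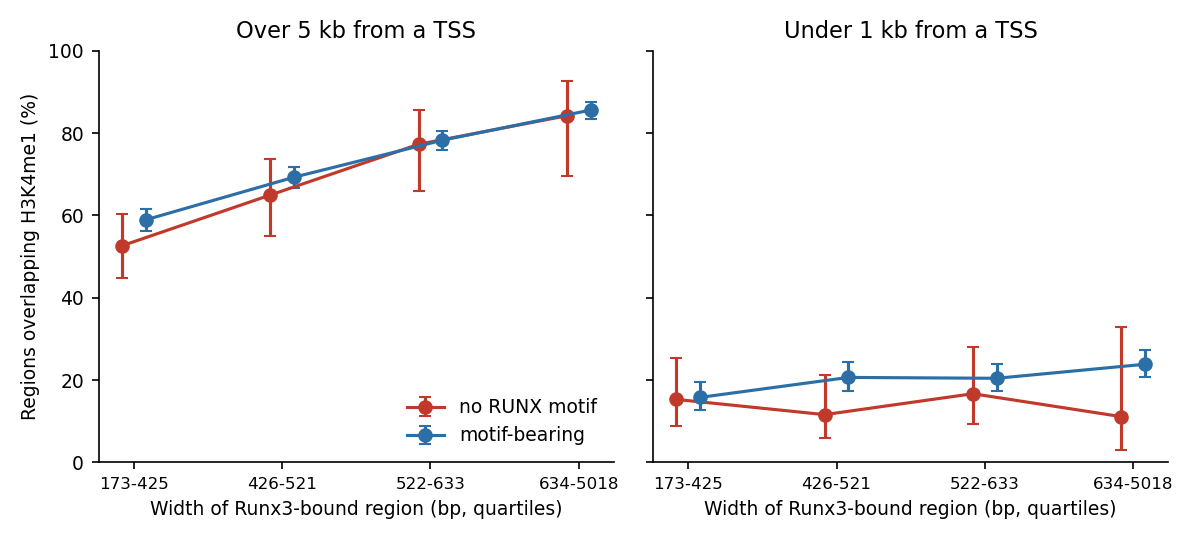
Share of Runx3-bound regions that overlap H3K4me1 (vertical axis, %) by quartile of region width in bp (horizontal axis), for regions over 5 kb (left) and under 1 kb (right) from a TSS. Points are no-motif (red) and motif-bearing (blue) regions with 95% Wilson intervals. Among distal regions both rise with width, from 52.6% to 84.2% for no-motif regions and from 58.9% to 85.6% for motif-bearing regions.

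Around distal no-motif regions the mark covered the centre less often than around motif-bearing ones. The centre of 181 of 353 distal no-motif regions (51.3%, 46.1 to 56.5%) lay inside an H3K4me1-marked region, with 55.8% and 54.1% at 500 bp to the left and right, 24.1% and 23.8% at 2000 bp, and 15.9% and 14.2% at 5000 bp. Motif-bearing regions had 60.4% at the centre, 63.5% and 63.8% at 500 bp and 13.9% and 14.3% at 5000 bp. The interval of the no-motif regions at the centre held both of their values at 500 bp. With motif-bearing regions weighted to the widths and distances of the no-motif regions, the value at the centre was 58.3%, above the interval of the no-motif regions. The weighted values at 500 bp to the left and right were 59.3% and 59.6%, beside intervals of the no-motif regions of 50.6 to 60.9% and 48.9 to 59.2%, and at 5000 bp 12.3% and 12.8%. At proximal no-motif regions the centre was covered in 9.59% (6.36 to 14.2%).

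**Figure D2:**
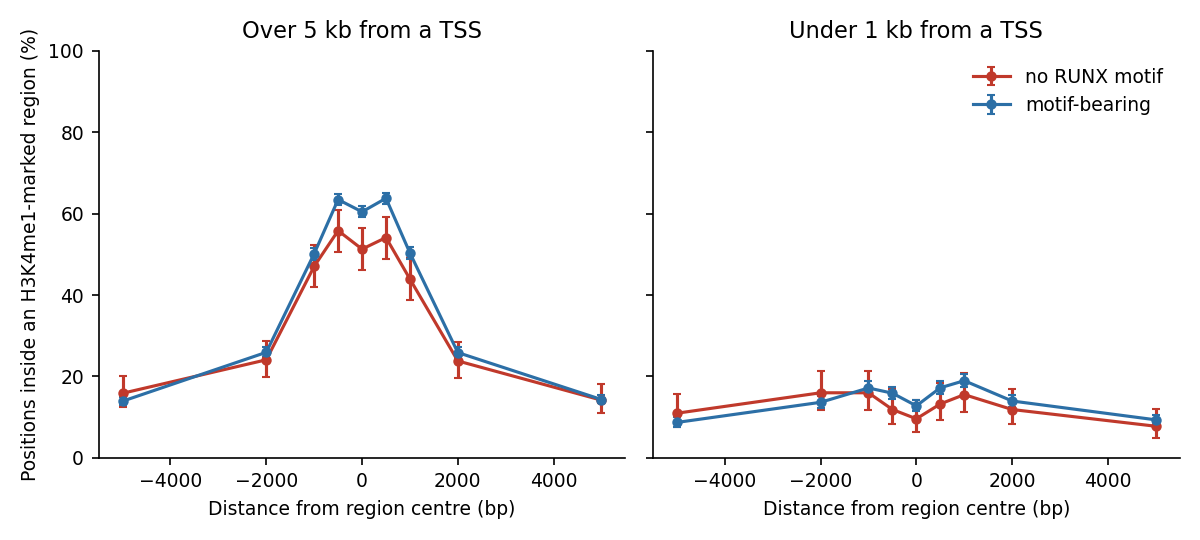
Share of positions inside an H3K4me1-marked region (vertical axis, %) at set distances from the region centre in bp (horizontal axis), for no-motif (red) and motif-bearing (blue) regions over 5 kb (left) and under 1 kb (right) from a TSS, with 95% Wilson intervals. Distal no-motif regions peak at 55.8% at 500 bp to the left of the centre and motif-bearing ones at 63.8% to the right, and both are near 14% at 5000 bp to the right.

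No-motif regions did not lie next to motif-bearing ones more often than other regions did. A motif-bearing Runx3-bound region had its centre within 10 kb of 218 no-motif regions (32.2%, 28.8 to 35.8%), against 31.7% for all Runx3-bound regions and 31.7% of motif-bearing regions counted the same way, a difference to the latter of 0.464 percentage points (-3.09 to 4.20). Of the 312 no-motif regions that overlapped H3K4me1, 40 (12.8%, 9.56 to 16.99%) shared their H3K4me1-marked region with a motif-bearing Runx3-bound region, beside 12.98% (12.1 to 14.0%) for motif-bearing regions with a further such region. Among the 5550 H3K4me1-marked regions that held Runx3, 344 held a no-motif region, and in 304 of these (88.4%, 84.6 to 91.3%) no motif-bearing region was present.

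The words that departed from the RUNX motif by 1 base were counted in the central 200 bp of each region and, as background, in 200 bp windows at 1000 bp to either side that overlapped no Runx3-bound region. Departures at positions 1, 3 and 6 of the motif were more frequent at the centre of distal no-motif regions than in their flanks. A word changed at position 1 was found in 264 of 353 centres (74.8%, 70.0 to 79.0%) and 44.3% of flank windows, at position 3 in 218 (61.8%, 56.6 to 66.7%) and 39.7%, and at position 6 in 180 (51.0%, 45.8 to 56.2%) and 31.2%. Departures at positions 4 and 5, the guanines of the GG pair, were found in 64.0% (58.9 to 68.8%) and 66.3% (61.2 to 71.0%) of centres, and these intervals held the flank levels of 65.6% and 64.6%. At position 2 the share was 58.4% (53.15 to 63.4%) and the flank level 52.9%, a ratio of 1.10. In motif-bearing distal regions the ratio of centre to flank was lower, 1.46, 1.32 and 1.36 at positions 1, 3 and 6 against 1.69, 1.56 and 1.63 in no-motif regions. Other words differed between centres and flanks too. At distal no-motif centres the GC box GGGCGG was more frequent (7.37%, flanks 2.92%) and TATAAA less frequent (10.2%, flanks 14.1%). No base composition is given for the flanks, and its effect on these ratios was not tested.

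**Figure D3:**
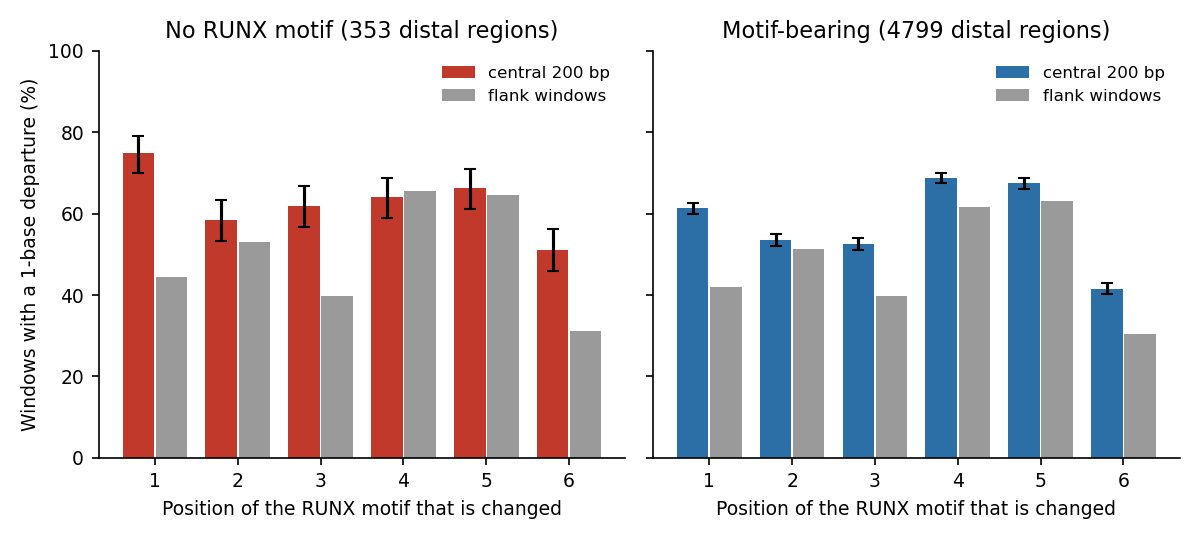
Share of windows (vertical axis, %) that hold a word with 1 changed base, by the position of the RUNX motif that is changed (horizontal axis, 1 to 6), for distal no-motif (left, red) and distal motif-bearing (right, blue) regions. Coloured bars are the central 200 bp with 95% Wilson intervals and grey bars the flank windows. In no-motif regions the coloured bars stand above the grey at positions 1, 3 and 6 (74.8%, 61.8% and 51.0% against 44.3%, 39.7% and 31.2%), and the pairs at positions 4 and 5 are near each other.

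Within these positions, the bases differed. AGYGGY was found in the centres of 187 of 353 distal no-motif regions (53.0%, 47.8 to 58.1%), 25.1% of their flank windows and 34.3% (32.99 to 35.7%) of distal motif-bearing centres. TGAGGY was found in 147 (41.6%, 36.6 to 46.9%), 21.1% and 33.03%, and TGYGGG in 153 (43.3%, 38.3 to 48.6%), 16.3% and 31.4%. These 3 were the most frequent of the departures at positions 1, 3 and 6. The largest ratio of centre to flank among all 16 departures was that of the rarer CGYGGY, which is not among the RUNX-like words and was found in 53 (15.0%, 11.7 to 19.1%) and 5.25%, a ratio of 2.86 beside 2.11, 1.97 and 2.65 for AGYGGY, TGAGGY and TGYGGG. In windows of 200 bp around the starts of all 22380 protein-coding genes their shares were 37.2%, 21.5% and 25.7%, and that of TGYGGY itself was 36.7%. Of the single words, AGTGGT (33.7% of centres, 10.6% of flanks), TGTGGG (41.6% and 14.9%) and TGAGGT (30.9% and 12.0%) led in distal regions. The base that followed the word was also uneven, since AGTGGT was followed by T at 64.3% of 140 central sites and 36.8% of 76 flank sites, and TGAGGT at 47.8% of 136 and 23.2% of 82. For comparison, TGYGGT was followed by T at 48.5% of 5079 sites in the centres of distal motif-bearing regions and at 29.8% in their flanks.

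Counted together, the 3 RUNX-like words were present in the central 200 bp of 585 no-motif regions (86.3%, 83.5 to 88.7%), against 71.5% of all Runx3-bound regions and 49.8% of the flank windows of no-motif regions. The share was 304 of 353 (86.1%, 82.1 to 89.3%) in distal and 188 of 219 (85.8%, 80.6 to 89.9%) in proximal regions. These shares exceeded distal motif-bearing regions by 16.1 percentage points (11.9 to 19.5) and proximal motif-bearing regions by 14.6 (9.03 to 19.0). The words had been chosen from counts in these same regions, and the intervals do not allow for that choice. Flank windows of distal no-motif regions that themselves held no TGYGGY had a RUNX-like word in 243 of 498 (48.8%), beside 50.7% of all their flank windows. These windows lacked the motif over 200 bp only, and an effect of the rule on the share at the centres was not tested. Since 62.9% of gene start windows held such a word, a match in any given region is common. In distal centres 99 regions (28.05%) held 3 or more RUNX-like sites, against 3.21% of flank windows, and 49 (13.9%) held none, against 49.3%. The sites were densest in the middle, at 11.4 and 11.7 per region per kb in the 50 bp bins to either side of the centre and 3.80 and 3.74 at 475 bp.

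**Figure D4:**
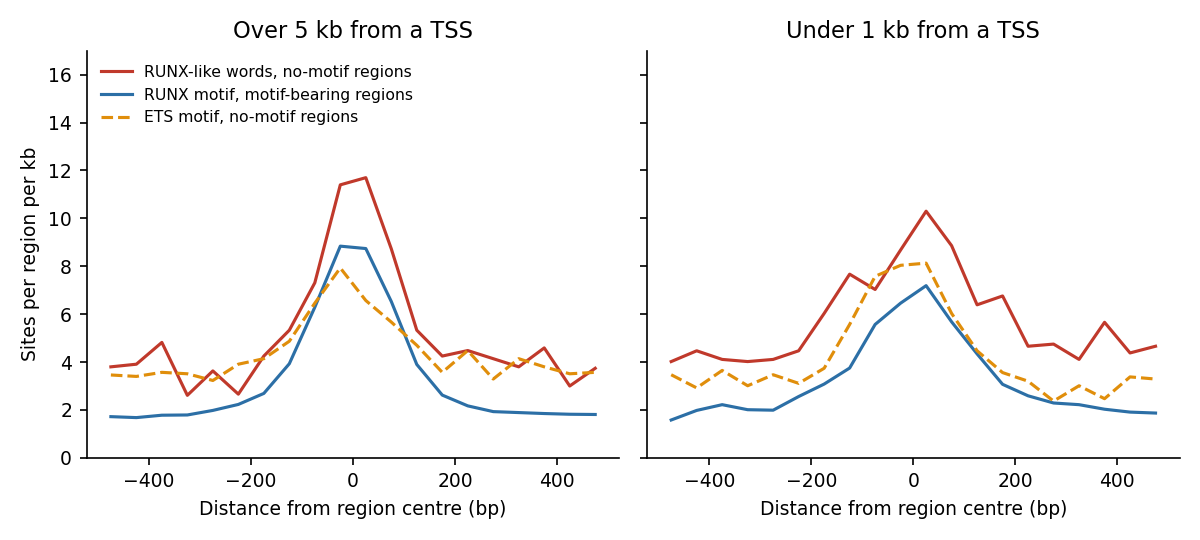
Number of sites per region per kb (vertical axis) in 50 bp bins by distance from the region centre in bp (horizontal axis), for regions over 5 kb (left) and under 1 kb (right) from a TSS. Lines are RUNX-like words (red) and ETS motifs (dashed orange) in no-motif regions and the RUNX motif in motif-bearing regions (blue). Each line has its highest values within 75 bp of the centre, with RUNX-like words at 11.7 per kb in distal and 10.3 per kb in proximal no-motif regions.

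ETS motifs were frequent in regions both with and without RUNX-like words. MGGAAR (M for either A or C, R for either A or G) was present in the central 200 bp of 491 no-motif regions (72.4%, 68.9 to 75.7%), against 66.1% of all Runx3-bound regions, 45.8% of flank windows and 51.9% of gene start windows. It was found in 254 distal (72.0%) and 161 proximal (73.5%) no-motif regions, above motif-bearing regions by 6.36 percentage points (1.28 to 11.0) and 8.21 (1.69 to 14.0). This excess was limited to this word and to the centres. Over whole regions MGGAAR was found in 88.2% of no-motif and 88.9% of motif-bearing regions. The stricter ETS motif CCGGAAR was found in 3.12% (1.75 to 5.49%) of distal no-motif centres, 3.67% of distal motif-bearing centres and 1.17% of distal no-motif flanks. Its proximal values are given below. A RUNX-like word and an ETS motif within 50 bp of each other were found in 182 distal no-motif regions (51.6%, 46.4 to 56.7%) and 12.8% of flank windows, and the canonical motif with an ETS motif in 44.0% of distal motif-bearing centres and 6.75% of their flanks. Both kinds of site were frequent at the centres, and ETS motifs were present in 221 of 304 distal no-motif regions with a RUNX-like word (72.7%, 67.4 to 77.4%) and in 33 of 49 without one (67.3%, 53.4 to 78.8%). Of the 353 distal regions, 221 held both kinds of site in the central 200 bp, 83 a RUNX-like word only, 33 an ETS motif only and 16 neither. H3K4me1 was present at 156 of the 221 (70.6%) and 23 of the 33 (69.7%) with an ETS motif but at 38 of the 83 (45.8%) with a RUNX-like word only, and at 9 of the 16 (56.2%) with neither. The median widths of these 4 classes were 460, 475, 451 and 516.5 bp. Near TSSs the mark was rare in every class, at 22 of 136 with both kinds of site (16.2%), 1 of 25 with an ETS motif only (4.00%), and 8 of 52 with a RUNX-like word only (15.4%). The remaining 6 were too few for a share and were unmarked. Seen from the mark, ETS motifs were present in 179 of 226 marked distal no-motif regions (79.2%, 73.5 to 84.0%) and in 75 of 127 unmarked distal ones (59.1%, 50.4 to 67.2%). RUNX-like words were present in 85.8% and 86.6% of these regions. This comparison was made after the counts had been seen and was not tested.

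The composite GGAAGTGGT, in which GGAAG and the word AGTGGT share 2 bases, was found in the central 200 bp of 29 distal no-motif regions (8.22%, 5.78 to 11.6%) and 17 proximal ones (7.76%, 4.90 to 12.1%), against 3.23% of all Runx3-bound regions. It was found in 0 of 686 flank windows of the distal regions, which allows a share of up to 0.437%, in 0 of 427 of the proximal, which allows 0.703%, and in 0.384% of gene start windows. Motif-bearing regions had it in 150 distal (3.13%, 2.67 to 3.66%) and 52 proximal (2.38%, 1.82 to 3.11%) centres, lower by differences of 5.09 (2.60 to 8.45) and 5.38 (2.43 to 9.73) percentage points, and in 0.247% and 0.258% of their flanks. Of the 141 AGTGGT sites at distal no-motif centres 29 (20.6%) were joined to GGA in this way, and of 78 in the flanks 0. The composite lay at, among others, the gene for P-selectin ligand (Selplg, 6.03 kb into the gene, chr5:114274523-114274531), an intron 0.601 kb into the actin regulator gene Dock2 (chr11:34596742-34596750) and the promoters of the helicase gene Dhx9 (chr1:155334876-155334884) and the histone gene H2afz (chr3:137526959-137526967). These genes were chosen after their values had been seen, and the composite was not among the motifs planned beforehand.

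Near TSSs the leading sequences were those of promoters. Among all words of 6 bases, CGGAAG, with 117 sites in the centres of the 219 proximal no-motif regions and 7.18 in an equal number of flank windows, and CCGCCC, the reverse complement of the GC box, with 155 and 25.6, ranked highest. The GC box GGGCGG, bound by SP and KLF family factors, was present in 137 of all no-motif regions (20.2%, 17.4 to 23.4%), against 15.4% of all Runx3-bound regions, and in 98 of the proximal ones (44.8%, 38.3 to 51.4%). Proximal motif-bearing regions had it in 40.3% and gene start windows in 39.9%, inside that interval. The stricter ETS motif CCGGAAR was present in 55 proximal no-motif regions (25.1%, 19.8 to 31.3%), 18.9% of the motif-bearing, 3.28% of flank windows and 11.7% of gene start windows. In distal regions the words of 6 bases that led were CCCACA, which is TGTGGG read on the other strand (209 central sites, 60.2 in an equal number of flank windows), CAGGAA (233 and 78.7), AAACCA (184 and 57.1) and ACCACT, which is AGTGGT (141 and 40.1). AAACCA and AACCAC (140 and 43.2) overlap the end of RUNX-like words that are followed by T, read on the other strand, and CAGGAA and ACTTCC (155 and 52.0) overlap the ETS motif.

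Other motifs were fewer. In distal no-motif centres the AP-1 motif TGASTCA, where S is C or G, was present in 34 regions (9.63%, 6.98 to 13.2%) and 3.64% of flanks, the STAT motif TTCNNNGAA in 46 (13.03%, 9.91 to 16.9%) and 5.39%, the TCF/LEF motif CTTTGAW, where W is A or T, in 51 (14.5%, 11.2 to 18.5%) and 6.85%, the IRF motif GAAANNGAA in 37 (10.5%, 7.70 to 14.1%) and 6.41%, and the T-box motif GGTGTGA in 19 (5.38%, 3.47 to 8.25%) and 2.33%. The lower bound of each interval was above the flank share. In distal motif-bearing centres the 5 motifs were found at 7.73%, 12.4%, 10.8%, 7.67% and 6.29%. In gene start windows the values were 2.64%, 4.97%, 4.08%, 5.30% and 2.30%. The KLF motif CCACACCC was found in 5 distal no-motif regions (1.42%) and 4.33% of the motif-bearing. It overlaps the RUNX motif where A or G comes before it, and such sites were barred by the rule. NFAT (TGGAAA, 13.03% of centres and 16.8% of flanks), GATA (WGATAR, 24.9% and 33.7%), the E-box CANNTG (65.7% and 65.2%) and CTCF (AGRKGGCR, where K is G or T, 6.52% and 5.83%) were not above the flanks of distal no-motif regions by more than the interval of the centre. Their shares of gene start windows were 11.9%, 15.8%, 53.1% and 15.0%.

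**Figure D5:**
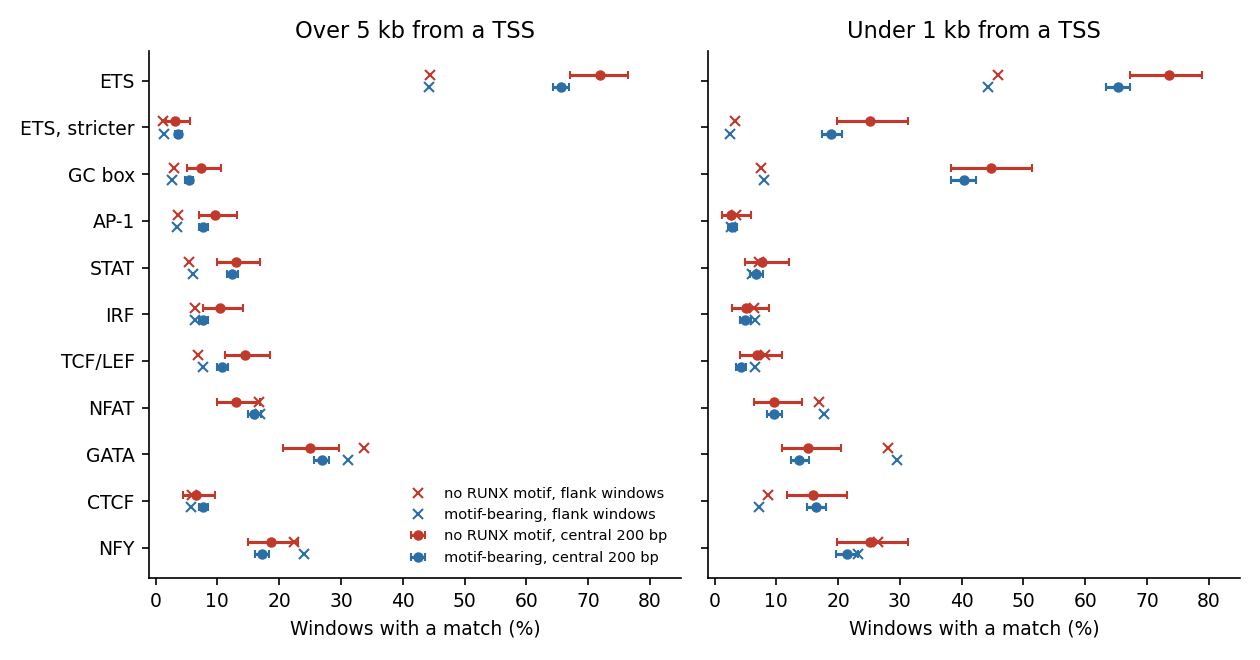
Share of windows with a match (horizontal axis, %) to 11 motifs (vertical axis) in regions over 5 kb (left) and under 1 kb (right) from a TSS. Circles with 95% Wilson intervals are the central 200 bp and crosses the flank windows, in red for no-motif and blue for motif-bearing regions. ETS stands apart at both distances (72.0% and 73.5% of no-motif centres) and the GC box near TSSs (44.8%).

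The genes at no-motif regions were counted as protein-coding genes that held such a region or lay within 5 kb of it. Of 22380 genes 614 (2.74%) did, which is 11.7% of the 5256 genes with any Runx3-bound region. Among lists of genes of T cell function the counts were 1 of 20 cytotoxic effector genes, 5 of 39 lymphocyte transcription factor genes, 3 of 37 receptor and ligand genes, 5 of 18 TCR signalling genes and 4 of 17 genes that the study names for proliferation, beside 13, 29, 31, 18 and 16 with any Runx3-bound region. Among gene families they were 4 of 150 ribosomal protein genes, 1 of 42 proteasome, 0 of 77 mitochondrial ribosome, 2 of 95 respiratory chain, 2 of 49 splicing, 3 of 68 translation factor, 3 of 72 replication and transcription, 3 of 67 histone and 5 of 374 zinc finger genes, beside 35, 12, 22, 27, 17, 27, 32, 36 and 72 with any Runx3-bound region. As a share of the genes with any Runx3-bound region, these counts ran from 0% for the mitochondrial ribosome to 27.8% for TCR signalling.

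The lists of T cell genes had 19 no-motif regions at 18 genes, of which 11 lay in introns, 10 overlapped H3K4me1, 16 held a RUNX-like word and 13 an ETS motif in the central 200 bp. Of all 678 no-motif regions, 35.1% lay in introns, 46.0% overlapped H3K4me1, 86.3% held a RUNX-like word and 72.4% an ETS motif. At 15 of the 18 genes a motif-bearing Runx3-bound region was present as well. No such share is given over all genes with a no-motif region, and gene length was not adjusted for. Distances below are from the gene start to the region centre, and negative values lie upstream. Tnf held a region of 436 bp (chr17:35337334-35337769) at 1.4 kb over a coding exon, without H3K4me1. Cd8b1 held one of 405 bp (chr6:71283828-71284232) at 11.2 kb, and Il12rb2 one of 511 bp (chr6:67317099-67317609) at 8.83 kb, both with H3K4me1.

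Among transcription factor genes, Bcl6, a repressor of effector differentiation, had a no-motif region of 568 bp at its start (chr16:23988492-23989059) over UTR and no motif-bearing region. Lef1, which acts in the Wnt pathway, held one of 407 bp in an intron at 89.6 kb (chr3:130902744-130903150), with 7 motif-bearing regions besides. Tox held the region of 295 bp printed above at 21.0 kb, also beside 7 motif-bearing regions. Elf1, itself an ETS factor gene, held one of 255 bp at 40.8 kb (chr14:79921636-79921890) with an ETS motif and no RUNX-like word. None of these 4 regions overlapped H3K4me1.

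Of the TCR signalling genes, Cblb, a ubiquitin ligase gene that limits activation, held 2 no-motif regions in introns, of 363 bp at 50.6 kb (chr16:52082061-52082423) and of 319 bp at 169 kb (chr16:52200265-52200583), both with H3K4me1 and a RUNX-like word. Fyn, a Src family kinase gene, held one of 428 bp at 104 kb (chr10:39192006-39192433), and Plcg1, the gene of a phospholipase, one of 475 bp at 3.19 kb (chr2:160559987-160560461). Each of these had H3K4me1, a RUNX-like word and an ETS motif. Bcl10, a link to NF-kB signalling, had one of 669 bp across its start (chr3:145586901-145587569) with a GC content of 65.9% and without H3K4me1.

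Of the proliferation genes, Smad3 (470 bp at 37.9 kb, chr9:63567627-63568096), Appl2 (479 bp at 4.48 kb, chr10:83106766-83107244) and Grap (523 bp at -0.174 kb, chr11:61466332-61466854) had H3K4me1, a RUNX-like word and an ETS motif. Inpp4b held a region of 526 bp at 365 kb (chr8:84231317-84231842) with none of these. No-motif regions near 3 further genes lay beyond 1 kb from the start and outside the gene, at Ikzf3 (-4.28 kb, chr11:98411297-98411952), Il12rb1 (-1.61 kb, chr8:73330405-73331063) and Ptpn22 (54.6 kb, chr3:103717969-103718690, over a coding exon of Rsbn1). These 3 were named after their values had been seen.

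The family lists had 23 no-motif regions at 23 genes, of which 6 overlapped H3K4me1, 19 held an ETS motif, 17 a RUNX-like word and 11 a GC box. Over all 678 no-motif regions these shares were 46.0%, 72.4%, 86.3% and 20.2%. A motif-bearing region was present at 3 of the 23 genes, a count that was not adjusted for gene length either. Regions under 1 kb from the gene start lay at the ribosomal protein genes Rpl27 (-0.03 kb) and Rpl38 (-0.015 kb), the proteasome gene Psmc4 (0.025 kb), the respiratory chain genes Ndufb3 (-0.122 kb) and Ndufv1 (0.068 kb), the translation factor gene Eif3f (-0.209 kb), the DNA helicase gene Mcm8 (0.015 kb), the RNA polymerase II genes Polr2a (-0.028 kb) and Polr2h (0.1 kb), the linker histone gene Hist1h1c (0.912 kb) and the zinc finger genes Zfp933 (-0.152 kb) and Zfp658 (-0.064 kb). All but Zfp933 of these 12 held an ETS motif, and all but Mcm8 lacked H3K4me1. Rpl27, Rpl38, Eif3f and Mcm8 held no RUNX-like word in the central 200 bp.

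The widest no-motif regions with largely unique sequence were at Tmc6 (1069 bp, chr11:117641921-117642989, over UTR), inside the annotated span of Eif4e3 on the Foxp1 side (1046 bp, chr6:99378374-99379419), upstream of Tmpo (1000 bp, chr10:90644086-90645085), in Dock2 (962 bp, chr11:34495071-34496032), at Ppp1r11 (939 bp, chr17:37087941-37088879), near Rpl11 (911 bp, chr4:135644391-135645301), near Sox5 (858 bp, chr6:144851165-144852022), at Atxn2l (856 bp, chr7:133646696-133647551), in Zc3h12a (835 bp, chr4:124801638-124802472) and near S100a3 (805 bp, chr3:90390594-90391398). Of these 10, those near Eif4e3, Rpl11, Sox5, Zc3h12a and S100a3 overlapped H3K4me1. RUNX-like words were present in the central 200 bp of those at Tmc6, Dock2, Ppp1r11, Rpl11 and S100a3.

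Most no-motif regions lay in unique sequence. Uniqueness was the share of 32-base words of the region found at no other place in the genome, and its median was 100%. It was under 80% in 30 no-motif regions (4.42%, 3.12 to 6.25%) and in 2.98% (2.64 to 3.36%) of motif-bearing regions. The 5 no-motif regions with under 20% unique words included the widest of all, chr8:19702942-19704965 near Gm6483 (2024 bp, 17.3% unique, words present in a median of 3 copies), and chr3:59214697-59214939 near Igsf10 (243 bp, 13.2% unique, a median of 67 copies). The others were chr17:8120986-8121408 at Tagap (0% unique, 2 copies), chr3:60272418-60272959 near Mbnl1 (17.2%, 2 copies) and chr7:113102414-113102616 at Gm4070 (18.6%, 3 copies). None of the 5 overlapped H3K4me1.

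By chromosome the share of regions without a motif ran from 4.30% (1.69 to 10.5%) on X to 8.85% (6.96 to 11.2%) on chromosome 2, and each interval held the overall 7.42%. The 4 on X were chrX:12164515-12164867 at the start of Atp6ap2, chrX:23250381-23250851 near Wdr44, chrX:163526792-163527120 and chrX:163584488-163584829, the last of which overlapped H3K4me1.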

How the data were processed

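The 5 ChIP-seq libraries of cultured CD8-TC comprised 2 Runx3 IPs, 2 NIS controls and 1 H3K4me1 IP, although the protocol mentions replicate experiments for H3K4me1 too. Per the labels and methods, the authors aligned reads to mm9 with ELAND, kept unique alignments, pooled repeats and ran MACS with the pooled NIS reads as control, scaling the larger read set to the smaller. The deposited values are peak bounds (first and last position in bp), with no score, fold or read number. Thus no replicate error, depth at single regions or significance could be had. The paper gives filtered read totals for each antibody, and its Runx3 total was lower for these cells than for resting CD8-TC. Regions that cannot be aligned uniquely are under-represented.

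Sequence was NCBIM37, which is mm9, with GENCODE vM1 annotation (95495 transcript starts, 22380 protein-coding genes). Starts were read as counted from 0 and are printed counted from 1. Motifs were searched on both strands in the central 200 bp, with flank windows at 1000 bp. The neighbour distance was 10 kb and modules spanned at most 50 bp. Difference intervals followed Newcombe. Weighted shares used the width quartile and distance class of the no-motif regions. Overlap needed 1 bp. Named regions were the 10 widest of at least 80% unique words, those under 20%, those on X, those in or under 1 kb from the start of genes on 5 lists, family genes with a region under 1 kb from their start, and the 3 nearest to either side of the rule at region edges. The no-motif regions, lists and words were chosen with earlier results of these data known. Functions were tested on simulated data. Software was SciPy 1.17.1, Numba 0.67.0, matplotlib 3.10.9, NumPy 2.4.6 and pandas 2.3.3 under Python 3.11.15.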

Additional observations from a re-analysis of the deposited data

How the results depend on the processing

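The number of no-motif regions, 678, depended on the stretch and the consensus searched: 1941 regions lacked TGYGGY in the central 200 bp and 168 lacked TGYGGN, while 494 lacked the motif when widened by 100 bp on each side. H3K4me1 overlap, 46.0% at 1 bp, was 38.2% when H3K4me1 had to cover 50% of the region and 36.3% when it had to cover the centre, beside 49.8% and 47.1% of motif-bearing regions. With 1 TSS per protein-coding gene, 25.1% were under 1 kb from a TSS and 63.4% over 5 kb, and 26.3% were under 500 bp. No motif-bearing values are given at these TSS settings, so the excess of no-motif regions near TSSs was not checked there. ETS motifs were found in 88.2% and GC boxes in 28.6% of whole regions, and CCGGAAR in 10.9% of centres. Motif-bearing regions had 88.9%, 25.5% and 7.85%. A motif-bearing region lay within 5 kb of 19.6% and within 20 kb of 43.7%. With alternatives chosen after seeing the data, RUNX-like words were found in the central 100 bp of 65.7% of distal no-motif regions, beside 29.6% of flank windows of that length. The remaining 8 of 22 values, which include those for autosomes and for largely unique regions, moved by less than their intervals or by under 1.5 times. No paired analysis was possible because peaks had been called on joined reads, and for the same reason no repeat could be left out. A stricter peak threshold was not run, since no score is given.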

Other observations

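Proximal no-motif regions held further promoter motifs at low counts. NFY (CCAAT) was found in 55 of the 219 centres (25.1%, 19.8 to 31.3%), 26.5% of flank windows and 27.4% of gene start windows. YY1 (AAGATGG) was found in 13 (5.94%), NRF1 (GCGCATGC) in 5 (2.28%), E2F (TTTSGCGC) in 4 (1.83%), CRE (TGACGTCA) in 3 (1.37%) and ZNF143 (ACTACAATT) in 2 (0.913%), beside 5.38%, 2.57%, 0.693%, 1.93% and 0.286% of gene start windows. The TATA sequence TATAAA was found in 5 (2.28%, 0.979 to 5.23%) and in 3.39% of proximal motif-bearing centres, below the 10.1% of flank windows and the 8.19% of gene start windows. The E-box CACGTG was found in 9 proximal (4.11%) and 17 distal (4.82%) no-motif regions, beside 5.55% of gene start windows. The forkhead motif TGTTTAC was found in 12 distal regions (3.40%) and 3.06% of their flanks.

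The letters GGA joined directly to the canonical word TGYGGY were found in 305 distal motif-bearing centres (6.36%, 5.70 to 7.08%) and 0.375% of their flanks. Of TGYGGY sites at these centres 4.33% were joined to GGA, against 11.7% of AGYGGY sites in the same regions and 17.3% of AGYGGY sites at distal no-motif centres. These sites are unlike in 1 respect, since GGA before AGYGGY always reads GGAAG while GGA before TGYGGY reads GGAT, which cannot match the ETS motif MGGAAR.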
